A study of Mus musculus with 3 samples.

Results

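Deubiquitinases are the proteases that take ubiquitin off other proteins, and their genes are described here by enzyme family: which of them carried a MYC peak at a gene end in Pan02 cells, how strong it was, and how it compared between cells with and without POH1-Flag. The set holds 78 of the 21887 protein-coding genes of the RefSeq annotation of GRCm38. It takes every symbol that opens with Usp and a digit, Uchl, Otud, Otub or Josd, and adds Bap1, Atxn3, Brcc3, Stambp, Stambpl1, Cops5, Mysm1, Cyld, Tnfaip3, Zranb1 and Vcpip1. Usp7, Usp22, Usp28, Usp36 and Usp37 are not part of it. By family the set falls into 52 USP, 13 OTU, 5 UCH, 3 Josephin and 5 JAMM genes. The 52 include Usp6nl, which is there by symbol only, since it encodes a GTPase-activating protein of the endosome and no deubiquitinase.

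Pan02 is a mouse pancreatic ductal adenocarcinoma line. In CUT&Tag a transposase is tethered to chromatin through an antibody and inserts sequencing adapters beside the bound protein. It was done with a Flag antibody in cells that stably carry POH1-Flag, with a MYC antibody in those POH1-Flag cells, and with a MYC antibody in cells that carry the empty vector. Each group was 1 library, so no difference between the cell lines can be set against a spread between replicates, and every interval below covers counting error only. How many clones the POH1-Flag line holds is not given in the sources used here. The title names POH1 as regulating MYC. The comparison asks here whether genes of the enzyme class to which POH1 belongs carried MYC signal, and whether it differed with POH1-Flag.

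The USP, OTU, UCH and Josephin enzymes are cysteine proteases, while JAMM enzymes cut with a zinc ion. POH1, encoded by Psmd14, is the JAMM enzyme of the proteasome lid. MYC pairs with MAX at E-box sequences, mostly in promoters, and is itself a short-lived protein whose turnover goes through ubiquitin. Several deubiquitinases act on regulators of growth, DNA repair, inflammation and endosomal sorting, and BAP1 and CYLD are known tumour suppressors.

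The deposited lists held 2936 Flag peaks, 22647 MYC peaks in POH1-Flag cells and 12175 MYC peaks in vector cells. Relative to the vector library, background read density gave a depth of 1.05 for the Flag library and of 1.06 for the other MYC library. This depth divides the lowest background of a library by its smallest peak width. Ratios below are scaled by the lowest background alone, 0.826 for MYC with POH1-Flag and 0.845 for MYC in vector cells. That scaling raises the ratios slightly, whereas scaling by the depth lowers them. A gene-end peak is one with its summit at most 1 kb from the start or end coordinate of a gene. Its level is given as the pileup, the whole number of reads over the summit, recovered from the deposited fold and p-value of each peak. Peaks are ranked by the authors' −log10 q. Medians over all peaks were 15 reads in the Flag library, 15 reads for MYC with POH1-Flag and 14 reads for MYC in vector cells, so a peak at a single gene carries wide counting error.

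Promoter sequences at MYC summits are shown first, to set the letters beside the peaks. For each family the one given belongs to the gene with the strongest MYC peak in POH1-Flag cells whose summit fell inside a promoter of the RefSeq table. Such a promoter runs from 250 bases before to 50 after a gene start on GRCm38.p6. Each reads 5′ to 3′ on the gene's strand, with CACGTG or CACGCG in capitals on either strand, so that the second also appears as CGCGTG. The first is the canonical E-box of MYC and MAX, and the second is a common variant of it. The 2 motifs differ in 1 letter and cannot start at the same base.
Usp20: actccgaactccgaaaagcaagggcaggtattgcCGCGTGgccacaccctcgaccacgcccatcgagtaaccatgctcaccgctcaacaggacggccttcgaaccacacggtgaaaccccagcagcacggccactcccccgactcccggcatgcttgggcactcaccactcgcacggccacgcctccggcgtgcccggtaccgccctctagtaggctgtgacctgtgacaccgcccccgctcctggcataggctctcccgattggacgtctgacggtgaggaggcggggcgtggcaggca
Otud1: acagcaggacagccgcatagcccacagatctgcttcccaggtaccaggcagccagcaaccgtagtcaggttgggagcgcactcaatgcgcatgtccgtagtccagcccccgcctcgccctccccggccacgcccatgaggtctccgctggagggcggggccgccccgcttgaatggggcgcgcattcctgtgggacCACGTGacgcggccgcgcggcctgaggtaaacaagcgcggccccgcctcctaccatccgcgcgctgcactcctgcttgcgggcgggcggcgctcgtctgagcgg
Uchl3: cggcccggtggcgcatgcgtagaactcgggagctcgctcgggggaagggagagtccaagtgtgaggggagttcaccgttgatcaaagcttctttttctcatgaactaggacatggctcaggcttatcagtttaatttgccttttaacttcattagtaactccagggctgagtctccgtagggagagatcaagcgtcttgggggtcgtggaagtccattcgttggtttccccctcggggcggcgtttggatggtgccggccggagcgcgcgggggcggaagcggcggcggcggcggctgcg
Atxn3: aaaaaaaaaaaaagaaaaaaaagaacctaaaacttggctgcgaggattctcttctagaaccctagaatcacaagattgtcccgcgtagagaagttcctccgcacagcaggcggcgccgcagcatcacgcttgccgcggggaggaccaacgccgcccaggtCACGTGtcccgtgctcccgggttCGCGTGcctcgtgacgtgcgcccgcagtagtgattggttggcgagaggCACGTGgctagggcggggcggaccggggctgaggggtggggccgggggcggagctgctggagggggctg
Mysm1: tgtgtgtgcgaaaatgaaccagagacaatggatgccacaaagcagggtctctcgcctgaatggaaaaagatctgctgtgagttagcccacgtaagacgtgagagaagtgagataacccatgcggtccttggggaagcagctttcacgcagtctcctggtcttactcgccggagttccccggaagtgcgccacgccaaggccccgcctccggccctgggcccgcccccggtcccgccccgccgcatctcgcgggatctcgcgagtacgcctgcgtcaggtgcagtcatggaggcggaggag
Usp20 (chr2:30982029-30982328, plus strand) held 1 CACGCG, 81.5 bases from the MYC summit of POH1-Flag cells. Otud1 (chr2:19657481-19657780, plus strand) held 1 CACGTG at 166.5 bases from it. Atxn3 (chr12:101958194-101958493, minus strand) held 2 CACGTG and 1 CACGCG, at 34.5, 36.5 and 11.5 bases from its summit. Neither motif was in the windows of Uchl3 (chr14:101653717-101654016, plus strand) or Mysm1 (chr4:94979051-94979350, minus strand). For scale, 7.84% of the 21263 promoters of protein-coding genes held CACGTG, 12.1% held CACGCG and 18.6% held either. A count over the whole set is void, because a promoter was listed for 62 of the 78 genes (79.5%), just under the minimum of 80%. A match describes letters and not binding.

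Deubiquitinase genes with a MYC peak at an end numbered 47 of 78 in POH1-Flag cells (60.3%, Wilson 95% interval 49.2 to 70.4%), where the share over all protein-coding genes was 40%. In vector cells there were 36 of 78 (46.2%, 35.5 to 57.1%), where the share over all genes was 28.2%. In either library the interval of the set thus lay above the share of all genes, although genes are not replicates and the set was chosen with the lists known. The 36 genes of vector cells were all among the 47 of POH1-Flag cells. Without olfactory, vomeronasal and predicted genes and the 5 Usp17l copies, the shares were 64.4% of the set against 45.1% of all genes in POH1-Flag cells, and 49.3% against 31.9% in vector cells.

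**Figure D1:**
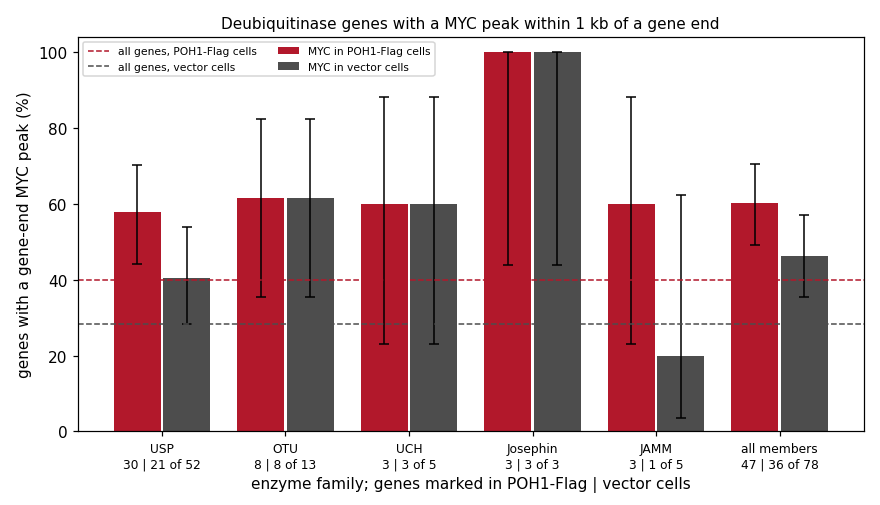
Share of genes in each family with a MYC peak whose summit lies within 1 kb of a gene end (y axis, percent), in POH1-Flag cells (red, left) and vector cells (grey, right). Error bars are Wilson 95% intervals over genes, dashed lines the shares of all protein-coding genes (40% and 28.2%). USP and JAMM bars differ between cell lines, while OTU, UCH and Josephin bars do not. In every family the intervals of both cell lines overlap.

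By family, 30 of 52 USP genes were marked in POH1-Flag cells (57.7%, 44.2 to 70.1%) and 21 of 52 in vector cells (40.4%, 28.2 to 53.9%). OTU genes numbered 8 of 13 in either cell line (61.5%, 35.5 to 82.3%), UCH genes 3 of 5 in either, and Josephin genes 3 of 3 in either. JAMM genes numbered 3 of 5 in POH1-Flag cells and 1 of 5 in vector cells. Marked with POH1-Flag alone were therefore 9 of the 31 USP genes without a vector peak (29%, 16.1 to 46.6%) and 2 of 4 such JAMM genes (50%, 15 to 85%). Of OTU genes without a vector peak 0 of 5 were (0 to 43.4%), and of UCH genes 0 of 2 (0 to 65.8%). The share over all genes without a vector peak, 17.2%, lay inside each of these intervals. The equal counts of OTU and UCH genes already ended with −log10 q held to 5 or more. There 7 OTU and 3 UCH genes were marked in POH1-Flag cells, and 6 and 2 in vector cells. Josephin genes stayed at 3 in either. Over all genes the share at that limit was 33.9% in POH1-Flag cells and 18.9% in vector cells. With −log10 q held to 10 or more, 6 OTU genes were marked in POH1-Flag cells and 2 in vector cells. UCH and Josephin genes then each numbered 3 in POH1-Flag cells and 1 in vector cells. Over all genes the share was then 20.1% in POH1-Flag cells and 6.91% in vector cells. No family was tested against another, and with 3 to 13 genes in 4 of the families the intervals overlap widely, as the bars by family show.

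No deubiquitinase gene had a Flag peak near an end. The count was 0 of 78, which allows a share of up to 3.85% by counting error, and over all genes the share was 0.196%, so a count of 0 in a set this size is near the background. Away from gene ends, 2 genes held a Flag peak, and these were singled out after their values were seen. No share over all genes is given for this count. Of the 31 genes without a gene-end MYC peak, 1 (Usp34) held such a Flag peak (3.23%). Over all genes of this kind the share was 3.95%, so this count is near the background. Inside Usp34, which encodes a very large USP enzyme linked to Wnt signalling, a site 39003 bp from the gene end had 15 Flag reads in POH1-Flag cells, 21 MYC reads in POH1-Flag cells and 13 MYC reads in vector cells. Inside Otub1, a site 3970 bp from the gene end had 11 Flag reads and 23 MYC reads in POH1-Flag cells, with no MYC peak listed in vector cells. Both antibodies thus gave a peak at these sites. With the limit at 2 kb, a single gene would count, Uchl4, whose end lay 1102 bp from a Flag peak of 15 reads. That is 1.28% of the set, where the share over all genes at 2 kb was 0.347%.

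The USP family, named after ubiquitin-specific proteases, is the largest, and its marked genes spanned 8 to 61 reads in POH1-Flag cells (median 20.5) and 9 to 38 reads in vector cells (median 16). The strongest peak of the whole set lay at Usp20 (chromosome 2, 30982279 to 31022655), an enzyme known to stabilise HIF-1α and to recycle β-adrenergic receptors. It had 61 reads in POH1-Flag cells and 38 reads in vector cells, a ratio of 1.64 (95% counting interval 1.08 to 2.53). Its summit lay 132 bp before the gene start in the promoter printed above and counts for the neighbour BC005624 as well. Ratios here and below are of POH1-Flag to vector cells, after each pileup was divided by the lowest background found in its own library. USP genes are named for strength in either MYC list or for an interval above 1, and the last choice favours high ratios.

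Usp53 (chromosome 3, 122931486 to 122984900), whose product sits at tight junctions, had the largest ratio of the set. Its pileup was 45 reads in POH1-Flag cells and 17 reads in vector cells (2.71, 1.52 to 5.05), with the summit 409 bp from the gene end. Usp5, which takes apart free ubiquitin chains, had 47 reads in POH1-Flag cells and 28 reads in vector cells (1.72, 1.05 to 2.85) at a site it shares with the cell cycle gene Cdca3. In both cases the interval lay above 1. That of Usp5 began just above it, and intervals of this kind depended on the scaling, as given below. Usp14, the enzyme that docks on the proteasome, had 30 reads in POH1-Flag cells and 14 reads in vector cells (2.19, 1.13 to 4.48). Usp15, which acts in TGF-β signalling and associates with the COP9 signalosome, had 39 reads in POH1-Flag cells and 19 reads in vector cells (2.10, 1.18 to 3.85). Usp38 had 30 reads in POH1-Flag cells and 13 reads in vector cells (2.36, 1.2 to 4.93). These also had intervals above 1, as did Usp1, which with its partner WDR48 deubiquitinates PCNA and FANCD2 in DNA repair and had 29 reads in POH1-Flag cells and 14 reads in vector cells (2.12, 1.08 to 4.34).

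At the other strong USP genes the counting interval held 1, so no difference could be detected with these reads. Usp2, an enzyme of the circadian system that acts on cyclin D1, had 33 reads in POH1-Flag cells and 20 reads in vector cells (1.69, 0.941 to 3.10). Usp32 had 32 reads in POH1-Flag cells and 18 reads in vector cells (1.82, 0.991 to 3.44). The tumour suppressor gene Cyld, which restrains NF-κB by removing linear and lysine-linked chains, had 32 reads in POH1-Flag cells and 21 reads in vector cells (1.56, 0.872 to 2.85). In each of these the lower bound came close to 1 from below. Usp3, an enzyme of ubiquitinated histones, had 28 reads in POH1-Flag cells and 19 reads in vector cells (1.51, 0.813 to 2.86). Usp12, bound by WDR48 like USP1, had 28 reads in POH1-Flag cells and 24 reads in vector cells (1.19, 0.667 to 2.15). Its close paralog Usp46 had 23 reads in POH1-Flag cells and 19 reads in vector cells (1.24, 0.645 to 2.41). Usp12 and Usp46 thus had some of the smallest ratios of the family together with vector peaks among its strongest.

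**Figure D2:**
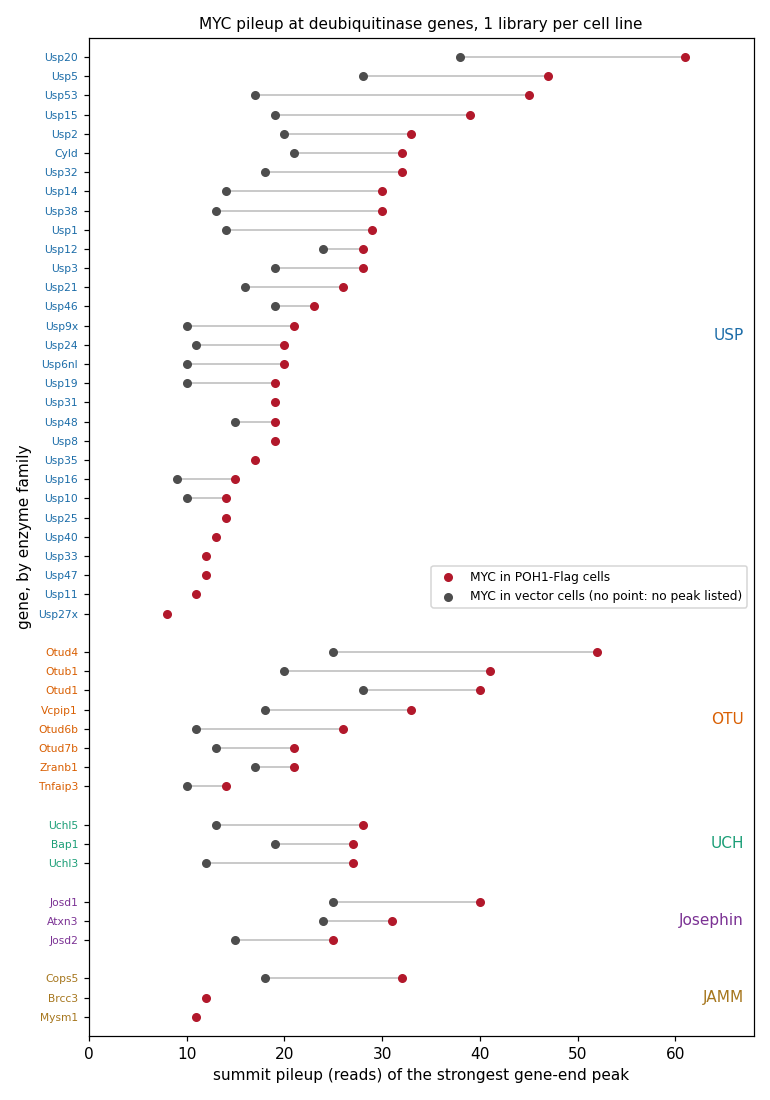
Summit pileup in reads (x axis) of the strongest gene-end MYC peak at each of the 47 marked genes, by family, in POH1-Flag cells (red) and vector cells (grey), with 1 library each. Each red point lies right of its grey point, Usp20 reaches 61 and 38 reads, and 11 genes have no grey point because no peak is listed there; at Otud7b the points are different sites.

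Genes with a MYC peak in POH1-Flag cells only numbered 11 of the 42 without a vector peak (26.2%, 15.3 to 41.1%), where the share over all such genes was 17.2%, inside the interval of the set. Their pileups in POH1-Flag cells were among the lowest of the set, between 8 and 19 reads. Usp8, which sorts receptors such as EGFR at endosomes, had 19 reads, as did Usp31. Usp35 had 17 reads and Usp25 had 14 reads. Usp40 had 13 reads, Usp33 and Usp47 had 12 reads each, and Usp11, known for its part in recombination repair, had 11 reads. Usp27x had the fewest, with 8 reads. The JAMM genes of this kind were Brcc3, the catalytic subunit of the BRCA1-A and BRISC complexes, with 12 reads, and the histone deubiquitinase gene Mysm1 with 11 reads. None of these peaks met a vector peak, and the lowest pileup called anywhere in the vector list was 6 reads, so a missing call does not mean an absence of signal. No gene was marked in vector cells only, where over all genes with a vector peak the share was 1.99%. With the POH1-Flag MYC list cut to the length of the vector list, 6 of the 42 genes stayed marked in POH1-Flag cells only (14.3%), where the share over all such genes was 8.67%. Of the 36 genes with a vector peak, 1 was then marked in vector cells only (2.78%), where the share over all such genes was 10.1%.

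OTU enzymes, the ovarian tumour family, had pileups of 14 to 52 reads in POH1-Flag cells (median 29.5) and 10 to 28 reads in vector cells (median 17.5). Otud4 (chromosome 8, 79639676 to 79677755), a scaffold in the repair of alkylated DNA, was the strongest, with 52 reads in POH1-Flag cells and 25 reads in vector cells (2.13, 1.30 to 3.58). Otub1 (chromosome 19, 7198206 to 7206284), which blocks ubiquitin transfer by binding the conjugating enzyme UBC13, had 41 reads in POH1-Flag cells and 20 reads in vector cells (2.10, 1.2 to 3.78). Otud6b, linked to protein synthesis, had 26 reads in POH1-Flag cells and 11 reads in vector cells (2.42, 1.15 to 5.42). Together with Vcpip1, a partner of VCP in Golgi reassembly that had 33 reads in POH1-Flag cells and 18 reads in vector cells (1.88, 1.03 to 3.54), these were the OTU genes whose interval lay above 1. The interval of Vcpip1 began just above it.

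The other marked OTU genes had intervals that held 1. Otud1, whose promoter with 1 CACGTG is printed above, had 40 reads in POH1-Flag cells and 28 reads in vector cells (1.46, 0.880 to 2.46). Zranb1, which encodes the Wnt-linked enzyme TRABID, had 21 reads in POH1-Flag cells and 17 reads in vector cells (1.26, 0.635 to 2.55). Tnfaip3, the NF-κB inhibitor induced by inflammatory signals, had 14 reads in POH1-Flag cells and 10 reads in vector cells (1.43, 0.592 to 3.60). Tnfaip3 thus had the fewest reads of the marked OTU genes in either library. Otud7b, also called Cezanne and an enzyme of mitotic ubiquitin chains, had 3 gene-end peaks in POH1-Flag cells. The site it shared between cell lines had 15 reads in POH1-Flag cells and 13 reads in vector cells, the smallest ratio of the set (1.18, 0.524 to 2.70), while its other sites had 21 reads each in POH1-Flag cells and no vector partner. Otud3, Otud5, Otud6a, Otud7a and Otub2 had no gene-end peak in either library.

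UCH enzymes, the ubiquitin C-terminal hydrolases, had 27 to 28 reads in POH1-Flag cells and 12 to 19 reads in vector cells. Uchl5, which acts at the proteasome and in the INO80 chromatin remodeller, had 28 reads in POH1-Flag cells and 13 reads in vector cells (2.2, 1.10 to 4.63) at a site shared with Ro60. Uchl3 (chromosome 14, 101653892 to 101696125) had 27 reads in POH1-Flag cells and 12 reads in vector cells (2.30, 1.13 to 4.99). The tumour suppressor gene Bap1, whose product removes ubiquitin from histones, had 27 reads in POH1-Flag cells and 19 reads in vector cells (1.45, 0.779 to 2.77), next to Phf7. Their levels in POH1-Flag cells were nearly equal, whereas in vector cells Bap1 stood highest. Uchl1, abundant in neurons, and Uchl4 had no gene-end MYC peak. Uchl4 (chromosome 9, 64235201 to 64236362) is a short gene closely related to Uchl3, and its promoter is shown for contrast.
Uchl4: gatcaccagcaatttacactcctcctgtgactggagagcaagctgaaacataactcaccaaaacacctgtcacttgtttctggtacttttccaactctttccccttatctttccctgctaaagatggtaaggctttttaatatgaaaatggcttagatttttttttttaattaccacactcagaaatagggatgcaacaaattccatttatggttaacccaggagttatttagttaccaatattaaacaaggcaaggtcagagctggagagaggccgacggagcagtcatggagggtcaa
This window (chr9:64234951-64235250, plus strand) had a GC content of 40.3%, against 60.0% in the Uchl3 window above, and neither held a searched motif.

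Josephin enzymes were marked at each of their 3 genes in either library. Atxn3 (chromosome 12, 101918901 to 101959121), the gene expanded in Machado-Joseph disease, had 31 reads in POH1-Flag cells and 24 reads in vector cells (1.32, 0.751 to 2.35), in the promoter with 3 motif matches. Josd1 had 40 reads in POH1-Flag cells and 25 reads in vector cells (1.64, 0.969 to 2.82). Josd2 had 25 reads in POH1-Flag cells and 15 reads in vector cells (1.71, 0.865 to 3.48). No Josephin interval lay above 1, while the vector pileups of Josd1 and Atxn3 were above those of all OTU genes other than Otud4 and Otud1.

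Among JAMM enzymes, whose marked genes numbered 3 of 5 in POH1-Flag cells and 1 of 5 in vector cells, levels were uneven. Cops5 (chromosome 1, 10024600 to 10038159), the catalytic subunit of the COP9 signalosome, which removes NEDD8 from cullin ligases, was the only JAMM gene of the set with a peak in both libraries. It had 32 reads in POH1-Flag cells and 18 reads in vector cells (1.82, 0.991 to 3.44), and its summit in POH1-Flag cells also lay within 1 kb of an end of Cspp1. Stambp and Stambpl1, genes of the endosomal enzyme AMSH and its relative, had no gene-end peak in either. Psmd14 itself, outside the set, had 24 reads in POH1-Flag cells and no peak in vector cells, as Brcc3 and Mysm1 did.

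At the 36 genes marked in both cell lines the ratio was above 1 at each, from 1.18 to 2.71, and its interval lay above 1 at 13 of them (36.1%). Over the 6000 protein-coding genes with a shared gene-end site the interval lay above 1 at 25.8%, the ratio was above 1 at 98.4%, and no interval lay below 1. With pileups scaled by background read density per base instead, the interval lay above 1 at 10 genes of the set. Intervals that start just above 1 thus depend on the scaling, and no share over all genes is given for that scaling. The median log2 ratio of the set was 0.78 (order-statistic 95% interval 0.64 to 1.03), and that of all genes, 0.72 (0.71 to 0.73), lay inside this interval. The higher pileup in POH1-Flag cells was therefore not shown to be particular to deubiquitinase genes. By family the medians were 0.78 for 21 USP genes, 0.73 for 8 OTU genes, 1.14 for 3 UCH genes, 0.71 for 3 Josephin genes and 0.86 at the JAMM gene Cops5. At a −log10 q of at least 10 the interval lay above 1 at 3 genes, Usp20, Usp5 and Otud4. Only 10 genes of the set were still marked in vector cells at that limit.

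**Figure D3:**
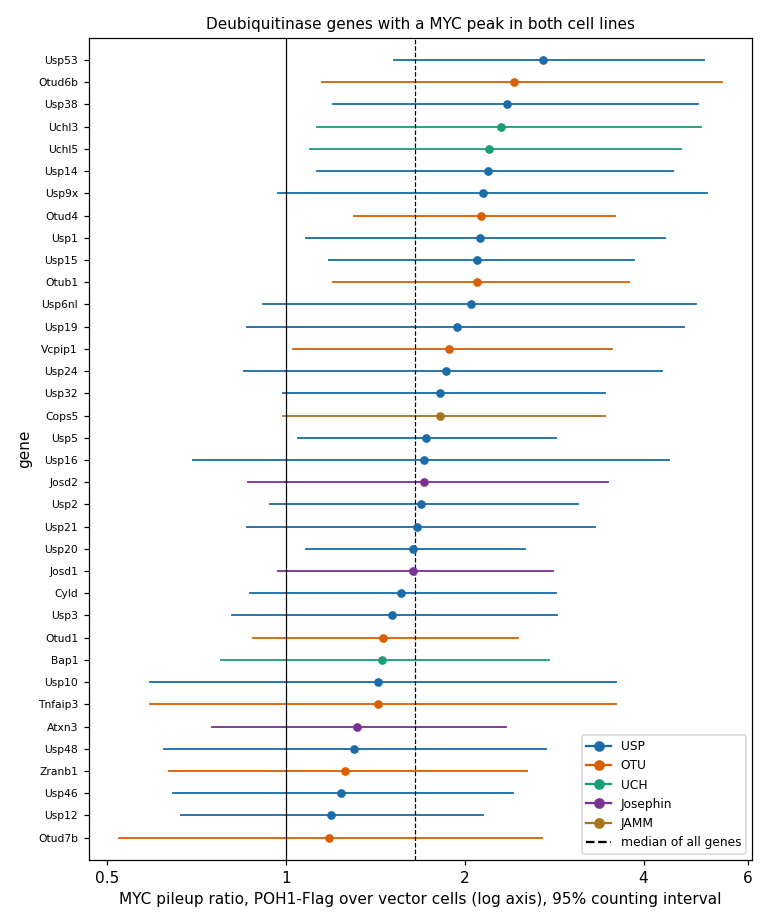
Ratio of MYC pileup in POH1-Flag to vector cells (x axis, log scale) at the 36 deubiquitinase genes with a shared gene-end site, with exact 95% counting intervals, coloured by family. The solid line marks 1 and the dashed line the median ratio of all genes (1.65); each point lies right of 1, and 13 intervals do not reach it.

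Pileups of the set were somewhat above those of all marked genes, with a median of 26 reads against 21 in POH1-Flag cells, and 17 against 15 in vector cells. Summits lay as near to gene ends as elsewhere. The median distance was 135 bp against 138 bp over all genes in POH1-Flag cells, and 76.6% against 74.9% lay within 250 bp. The farthest summit still counted in POH1-Flag cells was that of Atxn3 at 825 bp, which lay 53 bp before a listed start, and inside the genes the nearest beyond the limit were those of Usp15, 1048 bp from its end, and Usp4 at 1206 bp. A summit that also lay within 1 kb of a neighbouring gene's end occurred at 12 of the 47 genes (25.5%), against 29.6% over all marked genes. At Usp21 the strongest peak (26 reads in POH1-Flag cells and 16 reads in vector cells) lay at the far end, 6550 bp past the listed start in POH1-Flag cells and beside Ppox. At the end of Usp21 with the listed start, a peak of 15 reads in POH1-Flag cells lay 85 bp away and had no vector partner.

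**Figure D4:**
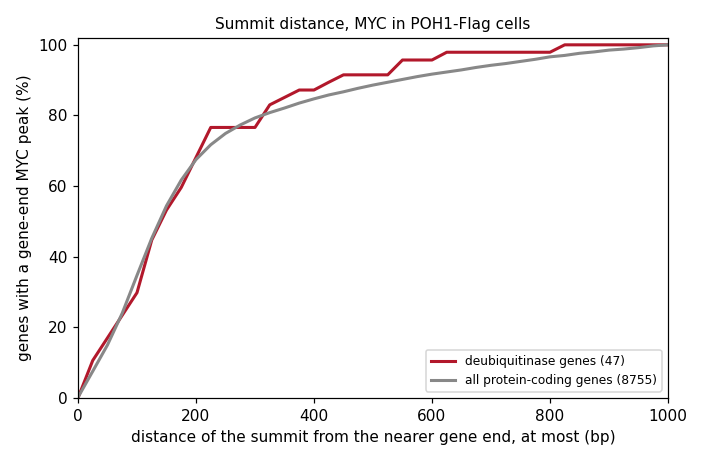
Cumulative share of genes (y axis, percent) whose strongest gene-end MYC peak in POH1-Flag cells has its summit within the distance on the x axis (bp) of the nearer gene end, for 47 deubiquitinase genes (red) and 8755 protein-coding genes (grey). The curves run close together, with 76.6% and 74.9% of genes within 250 bp.

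Of the 31 genes without a gene-end MYC peak in either library, 11 had a MYC peak elsewhere inside the gene in POH1-Flag cells (35.5%) and 8 in vector cells (25.8%). Over all 13009 protein-coding genes of this kind the shares were 18.7% in POH1-Flag cells and 11.1% in vector cells, with a median gene length of 32.6 kb in the set and 13.8 kb over all, a difference whose part in the result was not tested. Several of these peaks sat at a start inside the longest annotated span, which a rule on gene ends leaves out. A start was listed for 25 of the 31 genes, and 6 of them (24%) had a MYC summit within 1 kb of it in POH1-Flag cells, where the share over all genes of this kind was 6.97%. In vector cells 5 of 35 genes without a gene-end peak and with a listed start had such a summit (14.3%), where the share over all was 4.04%. The 6 were Usp4, Usp34, Usp45, Otub2, Otud5 and Stambpl1, picked out after their values were seen, and they are given here because they change which genes count as marked.

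Usp4, a paralog of Usp15, had 32 reads in POH1-Flag cells and 23 reads in vector cells, 61 bp before its listed start in POH1-Flag cells. Stambpl1 had 22 reads in POH1-Flag cells and 15 reads in vector cells. Otub2 had 15 reads in POH1-Flag cells and 16 reads in vector cells, so that it was not higher with POH1-Flag. Otud5, an X-linked regulator of interferon signalling, had 17 reads in POH1-Flag cells and 11 reads in vector cells. Usp34 had 23 reads in POH1-Flag cells and 15 reads in vector cells, at 3210 bp and 3117 bp from the gene end. Usp45 had 9 reads in POH1-Flag cells and no peak in vector cells. The promoter of Usp4 (chr9:108347581-108347880, plus strand) is shown because it held both motifs, CACGCG at 4.5 bases and CACGTG at 56.5 bases from the summit of POH1-Flag cells.
Usp4: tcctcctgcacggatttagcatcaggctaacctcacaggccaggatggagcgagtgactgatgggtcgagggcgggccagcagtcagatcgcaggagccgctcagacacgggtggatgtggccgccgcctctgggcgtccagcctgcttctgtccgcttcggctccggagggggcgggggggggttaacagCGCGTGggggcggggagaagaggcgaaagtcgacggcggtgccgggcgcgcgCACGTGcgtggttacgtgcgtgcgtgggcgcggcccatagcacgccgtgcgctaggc
With listed starts counted as well, 53 of 78 genes were marked in POH1-Flag cells and 41 of 78 in vector cells (67.9% and 52.6%), against 43.3% and 30.5% of all genes.

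At Usp43, Usp42 and Usp6nl the strongest internal peak lay far from either gene end. Usp43 had 33 reads in POH1-Flag cells and 20 reads in vector cells, 24926 bp and 24860 bp from the gene end. Usp42 had 29 reads in POH1-Flag cells and 19 reads in vector cells, about the middle of the gene. Usp6nl held 6 internal MYC peaks in POH1-Flag cells and 3 in vector cells, the strongest with 36 reads in POH1-Flag cells and 20 reads in vector cells. Genes with no MYC peak at an end and none inside in either library were Usp13, Usp18, Usp26, Usp29, Usp30, Usp39, Usp49, Usp50, Usp51, Usp9y, Uchl1, Uchl4, Otud3, Otud6a, Stambp and the 5 Usp17l copies. Usp18 removes the ubiquitin-like protein ISG15, and Usp30 sits on mitochondria. The Usp17l genes are known as a family of close copies, and how reads that fit several copies were placed is not given in the sources used here. Usp44, Usp54 and Otud7a, the last of the 31, had internal peaks of at most 19 reads.

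In POH1-Flag cells both genes of a paralog pair had a gene-end peak in 4 of 16 pairs, a single gene in 10 and neither in 2, and in vector cells these counts were 2, 10 and 4. Paralog pairs outside the set were not counted, so whether 10 pairs with a single marked gene are many or few cannot be told. Pairs marked at both genes in POH1-Flag cells were Usp12 and Usp46, Usp20 and Usp33, Usp35 and Usp38, and Josd1 and Josd2. Usp33 had 12 reads in POH1-Flag cells, against 61 reads at its paralog Usp20 in the same library. Usp5 was marked and its paralog Usp13 was not. Usp53 was marked and Usp54 had no gene-end peak. With listed starts counted as well, a setting chosen after seeing the data, the counts for both, a single gene and neither became 7, 8 and 1 in POH1-Flag cells and 4, 9 and 3 in vector cells. The contrast then ended for Usp4 and Usp15, for Otub1 and Otub2 and, in POH1-Flag cells, for Usp16 and Usp45, while Stambpl1 was then marked and Stambp was not.

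X-linked genes had weaker peaks. Of the 8 X-linked genes of the set, 4 were marked in POH1-Flag cells and 1, Usp9x, in vector cells. The 4 were Usp9x (21 reads), Brcc3 (12 reads), Usp11 (11 reads) and Usp27x (8 reads). Their median in POH1-Flag cells was 11.5 reads, against 27 reads at the 43 marked autosomal genes of the set. All X-linked genes showed the same order in POH1-Flag cells, with 20.6% marked and a median of 12 reads against 41.4% and 22 reads on autosomes. In vector cells 6.42% of all X-linked genes were marked, against 29.6% on autosomes. The 1 of 8 in the set was 12.5%. X chromosome copies in these cells were not measured, and their part in the result was not tested.

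Deubiquitinases outside the set and partners of deubiquitinase complexes made a list of 53 genes, which was not tested against the set. Of these, 47 had a gene-end MYC peak in POH1-Flag cells (88.7%) and 34 in vector cells (64.2%), against 40% and 28.2% of all genes. None had a Flag peak there. The other deubiquitinases numbered 7 of 8 in POH1-Flag cells and 4 of 8 in vector cells. Further MPN-domain proteins of the list numbered 7 of 7 in POH1-Flag cells and 3 of 7 in vector cells. The remaining COP9 signalosome subunits numbered 6 of 8 and 5 of 8, the partners of BRCC3 4 of 4 and 3 of 4, and those of BAP1 9 of 10 and 7 of 10, each in POH1-Flag cells and in vector cells. WDR48 and WDR20 adaptors numbered 1 of 2 in either, and other adaptors 13 of 14 in POH1-Flag cells and 11 of 14 in vector cells.

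By −log10 q the strongest of these was Kdm1b, a histone demethylase gene of the BAP1 complex, with 38 reads in POH1-Flag cells and 20 reads in vector cells (1.94, 1.10 to 3.53). G3bp1, the stress granule partner of USP10, had 52 reads in POH1-Flag cells and 36 reads in vector cells (1.48, 0.948 to 2.33). Stam, an endosomal partner of USP8 and AMSH, had 34 reads in POH1-Flag cells and 26 reads in vector cells (1.34, 0.780 to 2.32). Cops7b of the COP9 signalosome had 35 reads in POH1-Flag cells and 20 reads in vector cells (1.79, 1.01 to 3.27). These 4 were named for strength in POH1-Flag cells. The ratio was below 1 at Nploc4 (0.625, 0.267 to 1.4), Abraxas1 (0.895, 0.405 to 1.96) and Cops8 (0.974, 0.501 to 1.89), with intervals that held 1. At all other genes of the list with a ratio it was above 1. Partners and enzymes of a complex were not always alike in level. Usp10, with 14 reads in POH1-Flag cells and 10 reads in vector cells, was far below G3bp1 in either library, and Usp8 lacked a vector peak where Stam had 26 reads.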

How the data were processed

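The authors deposited 1 narrowPeak list per library, without a header or pooled replicates. Per the submitters' processing notes the tools were MACS2 2.2.7.1, BWA 0.7.17-r1188, Trim Galore 0.6.6 and FastQC 0.11.9 on GRCm38/mm10, with no roles or parameters. The sources used here do not give control libraries or duplicate handling. The deposited fold is a linear ratio of summit over background, deposited −log10 p and −log10 q values belong to the summit, and the score the authors deposited is the −log10 q times 10 without its decimals. Peak and summit positions are as deposited, in bp.

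Pileup k and background λ follow from the Poisson tail probability and from a fold equal to (k + 1)/(λ + 1), and k was whole within 0.01 of a read step in 100% of peaks. The lowest λ was 0.946 for Flag, 0.826 for MYC in POH1-Flag cells and 0.845 for MYC in vector cells, and it scaled the ratios. Total reads are unknown. Ratios pair peaks that are each other's highest partner overlapping by 1 bp or more, with exact conditional Poisson intervals. Python 3.11.15 and scipy 1.17.1 were used. In simulated data 100% of 1000 pileups and of 400 planted gene-end peaks were recovered, and 96.3% of 2000 intervals held the planted ratio. Duplicate reads that were kept would make intervals too narrow.

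Members and lists were chosen with earlier results of these data known. Named were all OTU, UCH, Josephin and JAMM genes, and of the USP genes the 10 strongest in each MYC list, those with an interval above 1, and the 8 strongest marked in POH1-Flag cells only. From the list of partners, the 4 strongest were named. Genes named for internal peaks, neighbours, paralogs or the X chromosome were picked after their values were seen. Alternatives were stricter q limits, other distances, equal list lengths, lists without Flag sites and other scalings.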

Additional observations from a re-analysis of the deposited data

How the results depend on the processing

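Over all settings, 105 recomputed values stayed close to the reported one and 15 moved further. To stay close, a count had to be within 1.5 times and the median log2 ratio inside its interval of 0.64 to 1.03. Some settings could hardly move a value. Without MYC peaks that meet a Flag peak each value of the set equalled the reported one, and leaving out Usp6nl removed a single gene. With −log10 q held to 10 or more, the marked genes numbered 29 in POH1-Flag cells and 10 in vector cells (37.2% and 12.8%), against 20.1% and 6.91% of all genes. The median log2 ratio was then 0.63 for the set and 0.59 for all genes. In the set 19 genes were marked in POH1-Flag cells only and 3 intervals lay above 1. For these 2 counts no share over all genes is given at that limit. By family, USP genes then numbered 16 in POH1-Flag cells and 6 in vector cells, and JAMM genes 1 and 0. OTU genes numbered 6 in POH1-Flag cells and 2 in vector cells (Otud1 and Otud4), UCH genes 3 and 1 (Bap1), and Josephin genes 3 and 1 (Atxn3), so that no family kept equal counts. With the POH1-Flag MYC list cut to the length of the vector list, 41 genes of the set were marked in POH1-Flag cells (52.6%), against 31.6% of all genes. Then 6 of 42 genes without a vector peak were marked in POH1-Flag cells only (14.3%, against 8.67% of all such genes), namely Usp8, Usp35, Usp31, Usp25, Usp11 and Brcc3. Of 36 genes with a vector peak, 1 was marked in vector cells only (Tnfaip3, 2.78%, against 10.1% of all such genes). A fixed list length or a q limit leaves fewer peaks by construction. At 2 kb, 1 gene (Uchl4) had a Flag peak (1.28%, against 0.347% of all genes). Unscaled pileups gave a median log2 ratio of 0.74 for the set and 0.69 for all genes, and background per base 0.66 and 0.60. Intervals above 1 in the set numbered 13 with unscaled pileups and 10 with background per base. Counting only summits near a listed start was not run, since 79.5% of the set had one, and the motif count with CACGTG alone was void for the same reason. No paired analysis was possible because each group held 1 library. The settings with listed starts (paralog pairs included), without Usp6nl and without Usp17l copies were chosen after seeing the data.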
